A study of Mus musculus with 7 samples.

Results

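The tumour necrosis factor (TNF) superfamily was read in 7 libraries of mouse heart as all rows of the deposited gene table whose symbol begins with Tnfsf (ligands) or Tnfrsf (receptors), together with Tnf, Cd40, Cd40lg and Cd70. The rule found 35 genes among 23420 rows, 14 ligands and 21 receptors. The tissue is labelled whole heart, while the extraction protocol names cardiac ventricle. The 4 control libraries came from mice with both copies of Ctla4 and no Pdcd1 (Ctla4+/+;Pdcd1-/-), and the 3 ICI-myocarditis libraries from mice that had lost 1 copy of Ctla4 on the same Pdcd1-null background (Ctla4+/-;Pdcd1-/-). ICI stands for immune checkpoint inhibitor, a drug that blocks CTLA-4 or PD-1. Here the disease was modelled by genotype, all 7 libraries were labelled untreated and 3 to 6 weeks old, and no group with an intact Pdcd1 gene was analysed here. The comparison asked which members differed between hearts labelled with myocarditis and hearts labelled control.

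TNF superfamily ligands are mostly trimeric proteins on the surface of activated leukocytes, and their receptors cluster when bound. One class of receptors recruits TRAF adaptor proteins and activates NF-kappaB, which supports survival and costimulation of lymphocytes. Another class carries a death domain and can start apoptosis or necroptosis, and soluble or truncated receptors act as decoys. In inflamed tissue, T cells, macrophages and dendritic cells are the best known sources of these genes, while fibroblasts, endothelium and muscle express some of the receptors.

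Libraries held 20931730 to 39037176 reads assigned to genes. Levels are normalized counts, that is, reads divided by 1 scaling factor per library. Ctla4 lay at 29.2 to 113.5 normalized counts in controls and 251 to 373 in ICI-myocarditis. Pdcd1 lay at 2.50 to 244 and 1096 to 1481, although every library is labelled Pdcd1-/-, and a count for a whole gene does not tell its exons apart. Control 2 stood apart from the other controls: the summed level of 12 T cell markers was 2377 there, 377 to 529 in controls 1, 3 and 4, and 9216 to 14286 in ICI-myocarditis. The summed level of 6 cardiomyocyte markers was 1009307 to 1860678 in controls and 603598 to 1033893 in ICI-myocarditis, so the labelled heart tissue expressed them in every library. In bulk tissue, fewer cells of a type and less RNA per cell cannot be told apart.

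Most measured members were higher in the hearts with myocarditis. Of the 35 genes, 30 passed the filter (3 or more libraries with a normalized count of 10 or higher). Of these, 17 rose at a limma adjusted p below 0.05, where 11.7% of all 15258 genes tested were called higher. No member was called lower, against 4.00% of all genes tested, a share so small that 0 of 30 says little. No member with a lower level had an unadjusted p below 0.05. The count of lower calls was also 0 with edgeR and with DESeq2. The median log2 fold change of the 30 genes was 1.74, beside -0.02 over all genes tested. All 3 ICI-myocarditis libraries lay above all 4 controls for 19 of the 30 genes (17.3% of all genes tested) and below them for 0 (11.3%). Tnfrsf8, Tnfsf11 and Tnfsf18 passed the filter through the ICI-myocarditis libraries alone, so their difference was partly built into their selection. Tnf, Tnfrsf9, Tnfrsf11b, Tnfrsf13b, Tnfrsf13c, Tnfsf8 and Tnfsf14 had fewer than 3 controls at 10 or higher. They too needed ICI-myocarditis libraries to pass, so the filter favoured higher levels there for these genes as well. The count of 17 became 11, 10 and 7 without ICI-myocarditis 1, 2 and 3 (27 members tested each time), and 13, 19, 14 and 16 without controls 1 to 4. The number of all genes called higher moved in the same directions. It fell in each of these settings except without control 2, where it rose, so these changes were not particular to the family.

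**Figure D1:**
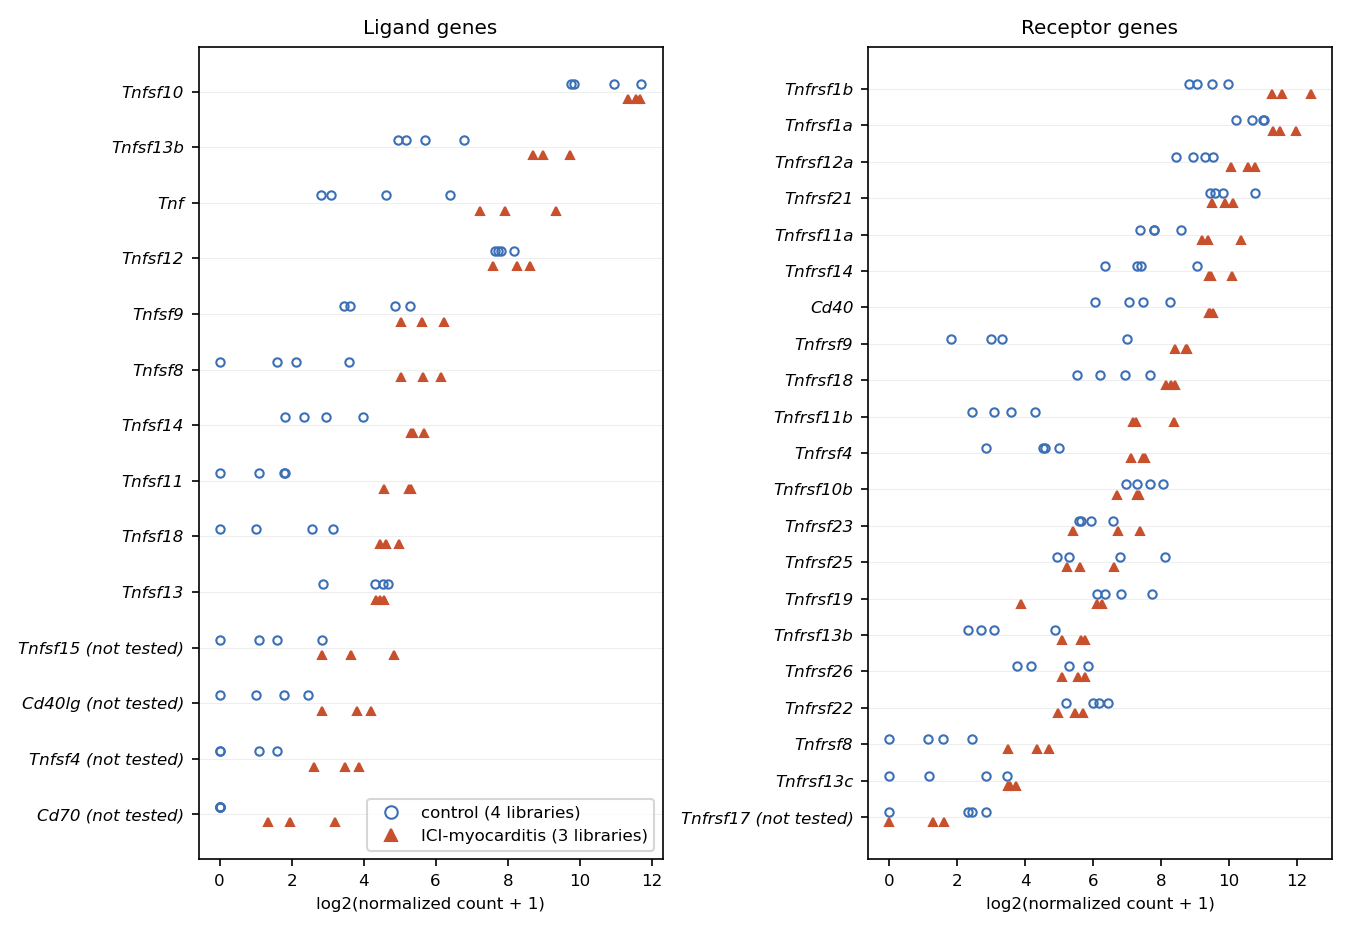
Each point is 1 library, with log2(normalized count + 1) on the horizontal axis, ligands on the left and receptors on the right. Open circles are the 4 controls and triangles the 3 ICI-myocarditis libraries. The triangles lie to the right of all circles for 19 of the 30 genes tested, while Tnfsf13, Tnfsf12, Tnfrsf21 and Tnfrsf10b overlap.

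Among the ligands, 6 of 10 tested genes rose: Tnf, Tnfsf8, Tnfsf11, Tnfsf13b, Tnfsf14 and Tnfsf18. The share called higher over all genes tested was 11.7%. Tnf encodes the founding cytokine of the family, made mainly by macrophages and T cells, and lies at chr17:35199381-35202007 (GRCm38). Tnf measured 6.05, 82.7, 23.4 and 7.51 normalized counts in controls 1 to 4 and 150.4, 239.9 and 648 in ICI-myocarditis 1 to 3. The lowest ICI-myocarditis library was above control 2, the highest control, and the 3 ICI-myocarditis libraries themselves spread from 150.4 to 648. The difference was called (log2 fold change 3.94 with SE 0.854, limma adjusted p = 0.0152), and the call was lost without ICI-myocarditis 3 (fold change 3.35 on the log2 scale, limma adjusted p = 0.0706, range over 17 alternatives 0.000146 to 0.0706).

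Tnfsf13b encodes BAFF, a survival factor for B cells that myeloid cells and stroma release. Tnfsf13b measured 30.2, 109, 51.4 and 35.03 normalized counts in controls 1 to 4 and 415, 499 and 845 in ICI-myocarditis 1 to 3. All 3 ICI-myocarditis libraries were far above the controls and ICI-myocarditis 3 was the highest (log2 fold change 3.48 with SE 0.454, limma adjusted p = 0.0034). This call held in all 17 alternatives.

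Tnfsf8 encodes CD30 ligand and measured 2.02, 11.1, 3.35 and 0 normalized counts in controls 1 to 4 and 31.7, 69.6 and 48.9 in ICI-myocarditis 1 to 3. The groups did not overlap (log2 fold change 3.78 with SE 0.785, limma adjusted p = 0.0127), but the call was lost without ICI-myocarditis 2 or 3 (log2 fold changes 3.51 and 3.76, limma adjusted p = 0.0575 and 0.0578, range over 16 alternatives 5.11e-05 to 0.0578). Tnfsf14 encodes LIGHT, a ligand of HVEM and of the lymphotoxin beta receptor. Tnfsf14 measured 4.03, 14.8, 6.70 and 2.50 normalized counts in controls 1 to 4 and 38.9, 40.6 and 49.7 in ICI-myocarditis 1 to 3. It differed with no overlap (log2 fold change 2.69 with SE 0.554, limma adjusted p = 0.0123), with a limma adjusted p of 0.0669 without ICI-myocarditis 3 at a log2 fold change of 2.58 (range over 16 alternatives 0.000194 to 0.0669). Tnfsf18, which encodes the ligand of GITR, rested on few reads, with 1.008, 4.93, 7.82 and 0 normalized counts in controls 1 to 4 and 23.5, 21.0 and 30.6 in ICI-myocarditis 1 to 3. Its difference was called (log2 fold change 3.01 with SE 0.766, limma adjusted p = 0.0287) and was lost without control 1 (log2 fold change 2.78, limma adjusted p = 0.0787, range over 13 alternatives 0.0047 to 0.0787).

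The remaining 4 tested ligands were not called. Tnfsf10, which encodes the death ligand TRAIL, measured 858, 3358, 1989 and 911 normalized counts in controls 1 to 4 and 2603, 3253 and 3033 in ICI-myocarditis 1 to 3. Control 2 was the highest of all 7 libraries and the groups overlapped (log2 fold change 0.96 with SE 0.444, limma adjusted p = 0.181). Without control 2 the log2 fold change was 1.35 (limma adjusted p = 0.0168, range over 17 alternatives 0.0168 to 0.38). Tnfsf9, which encodes 4-1BB ligand, had 22.0 ± 13.7 (SD, n = 4) in controls against 51.5 ± 21.4 normalized counts (SD, n = 3) with myocarditis, and the groups overlapped (log2 fold change 1.32 with SE 0.551, limma adjusted p = 0.144). Tnfsf12 and Tnfsf13, which encode TWEAK and APRIL, had log2 fold changes of 0.32 and 0.35 (limma adjusted p = 0.497 and 0.699). These neighbours share 48.3% and 60.0% of their annotated exon bases with the read-through gene Tnfsfm13 on the same strand, so their counts are uncertain.

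The other 4 ligands lay near zero and were not measured well enough to test. Cd40lg, the T cell ligand of CD40, was at 0 to 4.47 normalized counts in controls and 6.14 to 17.4 in ICI-myocarditis. Tnfsf4, the ligand of OX40, was at 0 to 2.02 and 5.12 to 13.8, and Tnfsf15, the ligand of DR3, at 0 to 6.17 and 6.14 to 27.5. Cd70, the ligand of CD27, had 0 reads in every control, which allows up to 3 reads (3.025 to 3.753 normalized counts) per library, and 14 reads in all in the ICI-myocarditis libraries. In the authors' deposited table, Cd40lg, Tnfsf4 and Tnfsf15 had adjusted p-values of 0.0386, 0.0231 and 0.0376, and Cd70 had none.

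Of 8 receptors listed for costimulation of lymphocytes, 7 rose (Tnfrsf9, Tnfrsf4, Tnfrsf18, Tnfrsf8, Tnfrsf14, Cd40 and Tnfrsf1b), where 11.7% of all genes tested were called higher. The 8 receptors had a median log2 fold change of 2.34. Tnfrsf8 passed the filter through the ICI-myocarditis libraries alone and Tnfrsf9 needed them too. The filter therefore favoured higher levels there for both, and the count and the median include them. Tnfrsf9 encodes 4-1BB (CD137), which is induced on T cells after antigen contact, and lies at chr4:150914562-150946102 (GRCm38). Tnfrsf9 measured 7.06, 127, 8.93 and 2.50 normalized counts in controls 1 to 4 and 434, 339.9 and 426 in ICI-myocarditis 1 to 3. ICI-myocarditis libraries were close to one another, whereas control 2 was far above the other controls and below every ICI-myocarditis library. The difference was called (log2 fold change 4.86 with SE 1.015, limma adjusted p = 0.0131). With edgeR on the reads the log2 fold change of Tnfrsf9 was 3.42 (adjusted p = 0.0583), and without ICI-myocarditis 3 it was 4.81 (limma adjusted p = 0.0511, range over 17 alternatives 3.82e-05 to 0.0583). The authors' deposited table gave Tnfrsf9 a log2 fold change of 3.46 and no p-value.

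Tnfrsf4 encodes OX40, found on activated and regulatory T cells, and measured 23.2, 30.8, 22.3 and 6.26 normalized counts in controls 1 to 4 and 176, 138 and 186 in ICI-myocarditis 1 to 3. The groups were well apart and control 2 was close to controls 1 and 3 (log2 fold change 3.13 with SE 0.507, limma adjusted p = 0.0054). This call held in all 17 alternatives. Tnfrsf18 encodes GITR, another receptor of regulatory and activated T cells, and lies 9.6 kb from Tnfrsf4. Tnfrsf18 measured 72.6, 205, 123 and 45.04 normalized counts in controls 1 to 4 and 314, 286 and 338 in ICI-myocarditis 1 to 3. It was called (log2 fold change 1.70 with SE 0.459, limma adjusted p = 0.0359), but the call held in 9 of 17 alternatives (adjusted p 0.00349 to 0.124) and was lost with edgeR and with scaling by library size. It was also lost without control 1 or 3 and without any 1 of the ICI-myocarditis libraries (log2 fold changes over these settings 1.46 to 1.86). Of its annotated exon bases, 27.2% overlap the antisense gene Gm16008, and whether counting used strand is not given in the sources used here.

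T cell markers moved with these genes. All 12 listed markers were called higher, and the group means of their summed level differed by 4.05 on the log2 scale. Beside that, the log2 fold change was 4.86 for Tnfrsf9, 3.13 for Tnfrsf4 and 1.70 for Tnfrsf18. Of 4 regulatory T cell markers 2 were called higher, with sums of 539 to 710.5 in controls and 1102 to 1540.4 in ICI-myocarditis. The called ones were Ikzf4 and Ikzf2, and Ikzf2, with means of 430 and 871, made up most of the sum. Foxp3 (log2 fold change 2.42, limma adjusted p = 0.052) and Il2ra (0.51, limma adjusted p = 0.362) were not called. Of 4 natural killer cell markers 2 were called higher, with sums of 12.5 to 204 in controls and 268 to 384 in ICI-myocarditis. No marker of these lists was at 0 in all libraries. The part of lymphocyte number in these differences was not tested.

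**Figure D2:**
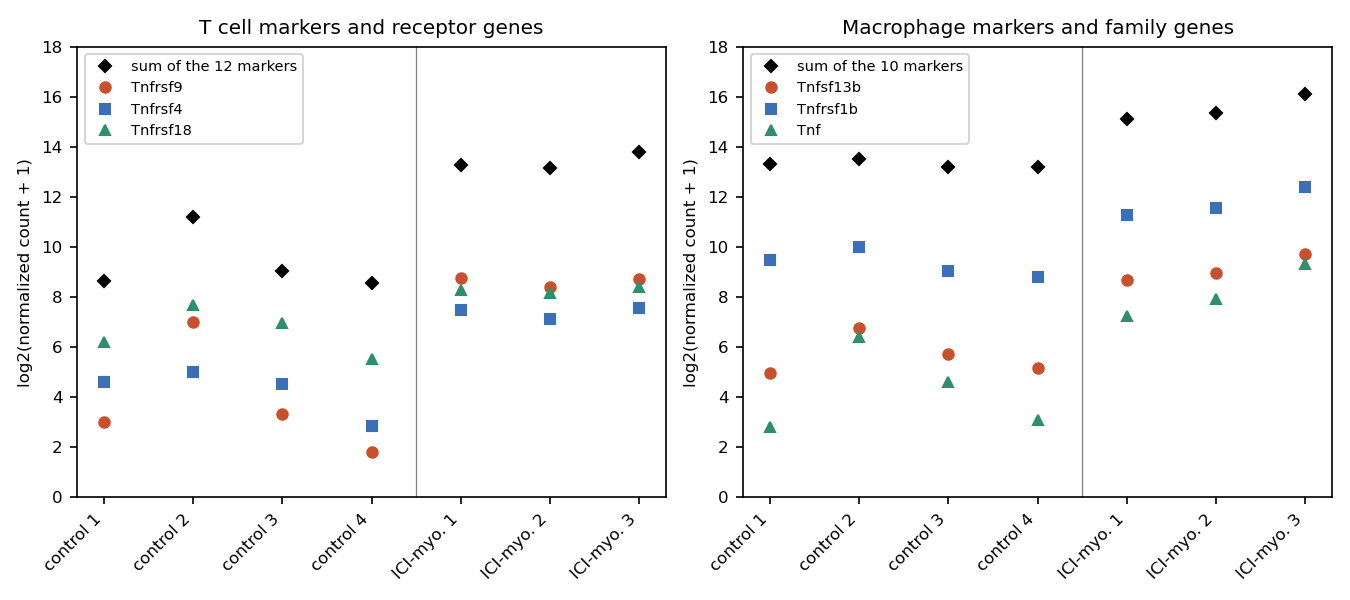
The left panel plots, per library, log2(normalized count + 1) of Tnfrsf9, Tnfrsf4 and Tnfrsf18 beside the sum of 12 T cell markers. The right panel plots Tnfsf13b, Tnfrsf1b and Tnf beside the sum of 10 macrophage markers. Control 2 is the highest control for the T cell sum, at 2377, and ICI-myocarditis 3 the highest library for the macrophage sum, at 71340.0.

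Tnfrsf8 encodes CD30, a receptor of activated lymphocytes, and stood near the floor in controls, with 2.02, 1.23, 4.47 and 0 normalized counts in controls 1 to 4 and 10.2, 19.6 and 25.2 in ICI-myocarditis 1 to 3 (log2 fold change 2.89 with SE 0.678, limma adjusted p = 0.021). Tnfrsf14 encodes HVEM, which binds LIGHT and the inhibitory receptor BTLA, and measured 171, 535, 155 and 81.3 normalized counts in controls 1 to 4 and 679, 713 and 1093 in ICI-myocarditis 1 to 3. Control 2 approached the ICI-myocarditis range (log2 fold change 2.12 with SE 0.536, limma adjusted p = 0.0277), and the call held in 11 of 17 alternatives (adjusted p 0.00055 to 0.113). It was lost with edgeR, without control 1 or 3, and without any 1 of the ICI-myocarditis libraries (log2 fold changes over these settings 1.78 to 2.25).

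Cd40 encodes the receptor through which helper T cells license B cells, dendritic cells and macrophages. Cd40 measured 65.5, 307, 176 and 131 normalized counts in controls 1 to 4 and 699, 684 and 739.6 in ICI-myocarditis 1 to 3. The 3 ICI-myocarditis libraries lay within a narrow range, above all controls (log2 fold change 2.26 with SE 0.44, limma adjusted p = 0.01). This call held in all 17 alternatives. Dendritic cell markers were called higher for 4 of 7 genes, with sums of 698 to 2355 in controls and 2059 to 2875 in ICI-myocarditis, so control 2 overlapped there, and no listed marker was at 0 in all libraries. Zbtb46 had the largest control mean of the list, 863, against 579 with myocarditis, and was not called (log2 fold change -0.47, limma adjusted p = 0.35). Clec9a and Siglech were not called either (1.09 and 1.30, limma adjusted p = 0.1175 and 0.271). The part of dendritic cells was not tested.

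Tnfrsf25 encodes DR3, which costimulates T cells and also carries a death domain, and was the 1 member of this group not called. Tnfrsf25 measured 111, 280.0, 38.0 and 30.0 normalized counts in controls 1 to 4 and 97.2, 48.6 and 36.7 in ICI-myocarditis 1 to 3. The groups overlapped and control 2 was the highest library (log2 fold change -0.47 with SE 0.735, limma adjusted p = 0.723). Without control 2 the sign turned (log2 fold change 0.15, limma adjusted p = 0.871, range over 17 alternatives 0.355 to 0.95).

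Of the receptors for TNF itself, Tnfrsf1b rose and Tnfrsf1a was not called. Tnfrsf1b encodes TNFR2, which recruits TRAF2 and is found mainly on leukocytes and endothelium, and lies at chr4:145213463-145246870 (GRCm38). Tnfrsf1b measured 721, 1014, 532 and 452 normalized counts in controls 1 to 4 and 2463, 3053 and 5469 in ICI-myocarditis 1 to 3. Every ICI-myocarditis library was above the highest control, and the difference was called in all 17 alternatives (log2 fold change 2.41 with SE 0.344, limma adjusted p = 0.00392). Tnfrsf1a encodes TNFR1, the death domain receptor that most cells carry. Tnfrsf1a measured 2087, 2061, 1645 and 1174 normalized counts in controls 1 to 4 and 2516, 2905 and 4046 in ICI-myocarditis 1 to 3. The ICI-myocarditis libraries were above all controls, but the difference missed the threshold (log2 fold change 0.86 with SE 0.262, limma adjusted p = 0.0543). Tnfrsf1a passed without control 2 (log2 fold change 0.96, limma adjusted p = 0.0354), with DESeq2 (0.86, adjusted p = 0.0208) and with limma-voom (0.77, adjusted p = 0.0157), a range of 0.0157 to 0.222 over 17 alternatives. The log2 ratio of Tnfrsf1b to Tnfrsf1a within a library was -1.63 to -1.02 in controls and -0.03 to 0.43 in ICI-myocarditis. The group means of this ratio differed by 1.55. It was chosen after the values were seen, so it is given as a description and not as a test.

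Macrophage markers moved in the same direction as Tnf, Tnfsf13b and Tnfrsf1b. Of 10 listed markers 8 were called higher, none was at 0 in all libraries, and their sum was 9332 to 11868 in controls and 35850.4, 42349.5 and 71340.0 in ICI-myocarditis 1 to 3. The 3 family genes were also highest in ICI-myocarditis 3, as 19 of the 30 tested members were. Of 6 endothelial markers 3 were called lower and 0 higher, with sums of 26737 to 66539 in controls and 17304 to 24984 in ICI-myocarditis and none at 0 in all libraries. The part of macrophage and endothelial cell number in these differences was not tested.

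The remaining death domain receptors were not called. Tnfrsf10b, the mouse receptor for TRAIL, had 187 ± 61.3 (SD, n = 4) in controls against 142 ± 32.4 normalized counts (SD, n = 3) with myocarditis (log2 fold change -0.37 with SE 0.318, limma adjusted p = 0.484). Tnfrsf21, which encodes DR6, had 1031 ± 486 (SD, n = 4) in controls against 930.2 ± 194 normalized counts (SD, n = 3) with myocarditis (log2 fold change -0.07 with SE 0.322, limma adjusted p = 0.917), and its sign turned with limma-voom (0.11), with scaling by library size (0.09), and without control 1 (0.22) or ICI-myocarditis 1 (0.10). Of the 4 listed genes with a death domain, counting Tnfrsf25 again, 0 were called. Over all genes tested, 15.7% were called in either direction, so 0 of 4 says little.

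All 3 genes of the RANK axis rose. Tnfsf11 encodes RANKL, Tnfrsf11a its receptor RANK and Tnfrsf11b osteoprotegerin, a secreted decoy that captures RANKL. The axis is best known for osteoclast formation and also acts between T cells and dendritic cells. Tnfrsf11b, at chr15:54250619-54278484 (GRCm38), measured 11.1, 18.5, 4.47 and 7.51 normalized counts in controls 1 to 4 and 143, 154 and 337 in ICI-myocarditis 1 to 3. The groups were widely apart (log2 fold change 4.26 with SE 0.514, limma adjusted p = 0.00286), and the adjusted p was the smallest of the 30 members. Tnfsf11 measured 0, 2.47, 1.12 and 2.50 normalized counts in controls 1 to 4 and 22.5, 37.0 and 39.0 in ICI-myocarditis 1 to 3, so its control level was near the floor (log2 fold change 3.87 with SE 0.595, limma adjusted p = 0.0045). Tnfrsf11a measured 219.8, 389, 221 and 166 normalized counts in controls 1 to 4 and 586, 666 and 1305 in ICI-myocarditis 1 to 3 (log2 fold change 1.75 with SE 0.355, limma adjusted p = 0.0118). No library of one group overlapped the other for any of the 3 genes. Over all genes tested, 11.7% were called higher, and 17.3% had all ICI-myocarditis libraries above all controls. Tnfsf11 passed the filter through the ICI-myocarditis libraries alone and Tnfrsf11b needed them too, so their separation was partly built into their selection. Each call held in every alternative that tested the gene, 17 for Tnfrsf11b and Tnfrsf11a and 13 for Tnfsf11. Tnfsf11 missed the filter whenever an ICI-myocarditis library was left out, so its call was not tested in those settings. Fibroblast markers, listed because stroma is a known source of osteoprotegerin, were called higher for 1 of 6 genes. Their sums were 25500.4 to 43343 in controls and 46024 to 81342 in ICI-myocarditis, with none at 0 in all libraries. The called gene was Col1a1, with means of 11467 and 41072, and the sum largely followed it. Lum, Pdgfra, Dpt and Dcn overlapped between groups (log2 fold changes 0.51, 0.27, 0.11 and 0.11). Tcf21 did not overlap (0.70, limma adjusted p = 0.0824). The part of fibroblasts was not tested.

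The receptors of the B lineage bind BAFF and APRIL. Tnfrsf13b, which encodes TACI, measured 4.03, 28.4, 5.58 and 7.51 normalized counts in controls 1 to 4 and 49.1, 33.3 and 53.5 in ICI-myocarditis 1 to 3 (log2 fold change 2.25 with SE 0.617, limma adjusted p = 0.0381). Control 2 came close to the lowest ICI-myocarditis library, and the call held in 7 of 16 alternatives (adjusted p 0.00167 to 0.153). It was lost with edgeR, with scaling by library size and without any 1 of the libraries other than control 2 (log2 fold changes over these settings 1.94 to 2.45). Tnfrsf13c, which encodes the BAFF receptor proper, measured 0, 6.17, 10.1 and 1.25 normalized counts in controls 1 to 4 and 10.2, 10.9 and 12.2 in ICI-myocarditis 1 to 3 and was not called (log2 fold change 1.73 with SE 0.826, limma adjusted p = 0.198). Tnfrsf17, which encodes the plasma cell receptor BCMA, was near zero and not measured, at 0 to 6.17 in controls and 0 to 2.05 in ICI-myocarditis. Of 7 tested B cell markers 1 was called higher, the median log2 fold change was -0.16, and sums were 234 to 669 in controls and 396 to 579 in ICI-myocarditis. Of 5 plasma cell markers 1 was called higher, with sums of 407 to 944 in controls and 1378 to 2074 in ICI-myocarditis. The called marker was Igj, the joining chain of secreted antibody, which had 11.8 ± 5.69 (SD, n = 4) in controls against 472.5 ± 278 normalized counts (SD, n = 3) with myocarditis. No marker of these lists was at 0 in all libraries, and the part of B lineage cells was not tested.

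Of the receptors listed for tissue cells, Tnfrsf11a and Tnfrsf12a rose and Tnfrsf19 was not called. Tnfrsf12a encodes Fn14, the receptor for TWEAK, which injured muscle and stroma induce. Tnfrsf12a measured 630.1, 347, 494 and 734 normalized counts in controls 1 to 4 and 1736, 1080.5 and 1511 in ICI-myocarditis 1 to 3. All ICI-myocarditis libraries were above all controls, and control 2 was here the lowest library of all (log2 fold change 1.41 with SE 0.286, limma adjusted p = 0.0117). The call held in all 17 alternatives, while its ligand Tnfsf12 was not called. Tnfrsf19, which encodes TROY, measured 80.7, 69.1, 113 and 213 normalized counts in controls 1 to 4 and 75.7, 68.1 and 13.8 in ICI-myocarditis 1 to 3. The groups overlapped and ICI-myocarditis 3 was the lowest library (log2 fold change -1.34 with SE 0.622, limma adjusted p = 0.182). Without ICI-myocarditis 3 the log2 fold change was -0.58 (limma adjusted p = 0.578, range over 17 alternatives 0.115 to 0.578).

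Tnfrsf22, Tnfrsf23 and Tnfrsf26 lie side by side on chromosome 7, with 6.1 and 16.1 kb between neighbours. Tnfrsf22 and Tnfrsf23 encode decoy receptors for TRAIL. None of the 3 was called, with log2 fold changes of -0.57, 0.57 and 0.70 (limma adjusted p = 0.36, 0.471 and 0.427). They are close paralogs, so reads may be split among them, and their levels were 12.5 to 165 normalized counts over the 7 libraries.

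**Figure D3:**
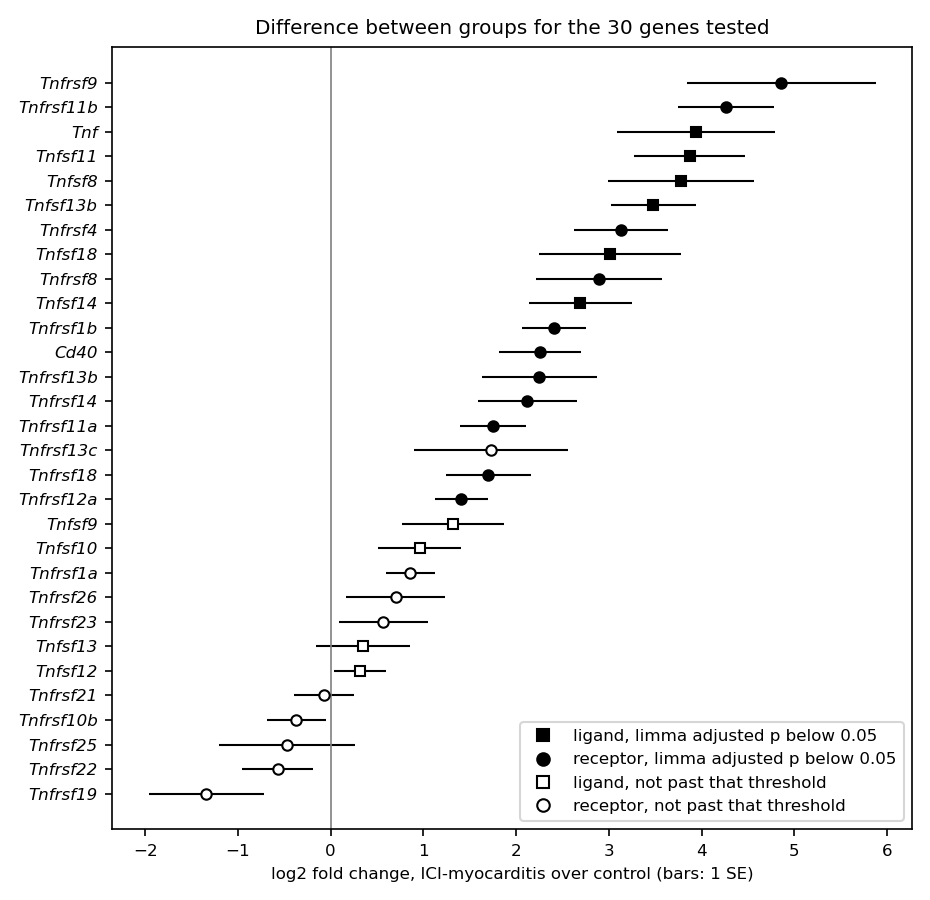
Points are log2 fold changes of the 30 tested genes, ICI-myocarditis over control, and bars are 1 standard error. Squares are ligands, circles are receptors, and filled symbols are genes with a limma adjusted p below 0.05. The 17 filled symbols run from 1.41 (Tnfrsf12a) to 4.86 (Tnfrsf9), and Tnfrsf19 has the lowest value, -1.34.

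Levels of different genes were compared per kilobase of annotated exon. In controls Tnfrsf1a led the family with 672 ± 166 normalized counts per kb (SD, n = 4). Tnfsf10 (338 ± 223), Tnfrsf12a (285 ± 87.1) and Tnfrsf21 (251 ± 118) followed and did not differ from one another beyond their spread. In ICI-myocarditis Tnfrsf1a stayed first with 1218 ± 307 per kb (SD, n = 3). Tnfrsf1b moved from the fifth to the second place, with 178 ± 65.5 and 959 ± 417 per kb, within the spread of Tnfrsf1a in ICI-myocarditis. Tnf moved from 18.2 ± 22.0 to 211 ± 162 per kb, and Tnfrsf9 from 13.4 ± 22.2 to 147 ± 19.1. Tnfrsf8 was the lowest of the 30 genes in both groups, at 0.558 ± 0.545 and 5.30 ± 2.19 per kb. Tnfsf11 had rank 29 in controls and 22 in ICI-myocarditis, at 0.680 ± 0.538 and 14.7 ± 4.02 per kb.

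Whether a receptor and its ligand moved by different amounts was tested on their log2 ratio within each library, for the 13 pairs with both genes tested. For Tnfsf9 and Tnfrsf9 the ratio of receptor to ligand was -0.53 ± 1.99 in controls and 3.01 ± 0.643 in ICI-myocarditis, a difference of 3.54 (exact two-sided permutation p = 0.0571, adjusted over 13 pairs 0.106). For Tnf and Tnfrsf1a the difference was -3.08 (exact permutation p = 0.0571, adjusted 0.106), and for Tnfsf11 and Tnfrsf11a it was -2.12 with the same p-values, but -0.79 with a pseudocount of 5 (exact permutation p = 0.114). For Tnfsf12 and Tnfrsf12a it was 1.10 (exact permutation p = 0.0571, adjusted 0.106). For Tnfsf11 and its decoy Tnfrsf11b it was 0.39 (exact permutation p = 0.543, adjusted 0.543). No pair passed after adjustment, and no pair reached the smallest p the design allows, 0.0286. After adjustment over 13 pairs, a pair could pass only if most pairs reached that smallest p. The lack of a passing pair therefore says little.

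**Figure D4:**
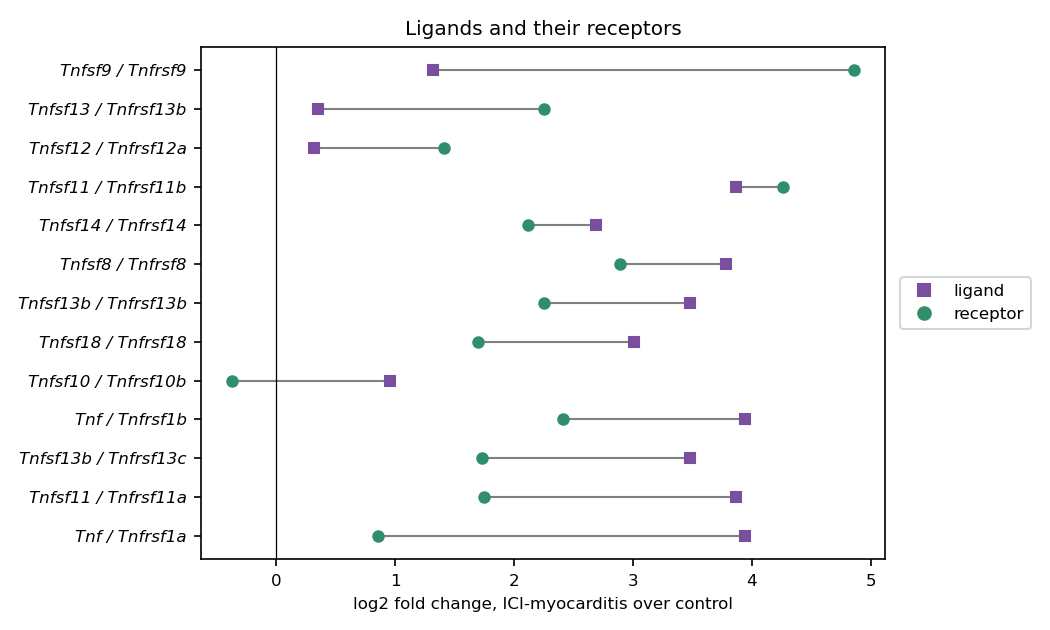
Each line joins the log2 fold change of a ligand (square) and of its receptor (circle), ICI-myocarditis over control. The widest gaps are Tnfsf9 with Tnfrsf9 (1.32 and 4.86) and Tnf with Tnfrsf1a (3.94 and 0.86). No difference within a pair passed the permutation test after adjustment, which so few libraries could hardly have allowed.

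Position in the genome was compared with these changes. Of the 35 members 9 lie on chromosome 4. Beside 11.7% of all genes tested, 7 of the 8 members tested there were called higher. They include the neighbours Tnfrsf1b and Tnfrsf8, 20.3 kb apart, and Tnfrsf4 and Tnfrsf18. Tnfrsf25, on the same chromosome between Tnfrsf9 and Tnfrsf14, was the exception. Tnfsf9, Cd70 and Tnfsf14 form a row on chromosome 17 with 38.2 and 39.7 kb between them, and of these Tnfsf14 was called, Tnfsf9 was not and Cd70 was near zero.

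Promoters were read from RefSeq (GRCm38.p6), as 250 bases before to 50 bases after each transcription start, and 25 of the 35 members had an entry. Both strands were searched for 3 motifs, and a match is a description of letters, not a binding site. The kappaB pattern (GGG, any 5 bases, CC) was in 15 of 25 members, beside 53.5% of all genes with a promoter. The gamma-activated pattern (TTC, any 3 bases, GAA) was in 6 of 25, beside 9.6%. The interferon-stimulated pattern (GAAA, any 2 bases, GAAA) was in 4 of 25, beside 4.0%. Of the 25 members with an entry 15 were called higher, and so were 10 of the 15 with a kappaB match, 3 of the 6 with a gamma-activated match and 3 of the 4 with an interferon-stimulated match (Tnfsf13b, Tnfrsf1b and Tnfrsf14, with Tnfrsf17 near zero). RefSeq gives Tnfsf13b and Tnfrsf9 more than 1 start, and the match shown for each lies before the downstream start only. The 250 bases before that start include 166 and 81 annotated exon bases, and those of Tnfrsf14 include 125. The interferon-stimulated matches are shown within 30 bases of the gene's own strand, 5′ to 3′, with the match in capitals. The kappaB match of Tnfrsf9, which overlaps a second match shifted by 1 base, is added as an example from a called receptor.
Tnfsf13b (chr8:10006603-10006632, plus strand): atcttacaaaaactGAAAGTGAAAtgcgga
Tnfrsf1b (chr4:145246871-145246900, minus strand): cctagctcctggcctgagggTTTCGCTTTC
Tnfrsf14 (chr4:154928122-154928151, minus strand): ctattttttcTTTCATTTTCacttttcctt
Tnfrsf17 (chr16:11313698-11313727, plus strand): aaataggtggTTTCTGTTTCaggaatagtt
Tnfrsf9 (chr4:150927946-150927975, plus strand): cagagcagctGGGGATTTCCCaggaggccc

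The whole stretch of 250 bases before the start is shown for Tnfrsf1b, with the interferon-stimulated match in capitals, and for Tnf, with the kappaB match in capitals, because these are the TNF receptor and ligand that rose. In Tnfrsf1b the match covers bases -10 to -1 and in Tnf it covers bases -194 to -185, counted back from the start.
Tnfrsf1b (chr4:145246871-145247120, minus strand): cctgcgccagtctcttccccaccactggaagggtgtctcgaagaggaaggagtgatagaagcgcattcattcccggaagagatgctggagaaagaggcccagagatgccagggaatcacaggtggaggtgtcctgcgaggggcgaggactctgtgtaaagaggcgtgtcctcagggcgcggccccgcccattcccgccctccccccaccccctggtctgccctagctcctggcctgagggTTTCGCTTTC
Tnf (chr17:35202008-35202257, minus strand): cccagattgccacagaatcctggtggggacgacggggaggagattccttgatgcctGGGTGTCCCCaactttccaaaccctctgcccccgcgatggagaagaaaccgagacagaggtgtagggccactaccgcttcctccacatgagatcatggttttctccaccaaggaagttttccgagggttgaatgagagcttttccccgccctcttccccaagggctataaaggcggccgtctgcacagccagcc

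Superfamily genes with other symbols were listed separately, 11 in all, with a median log2 fold change of 1.92. Of these 6 rose, where 11.7% of all genes tested were called higher. Lta was among the 6 and passed the filter through the ICI-myocarditis libraries alone, so its difference was partly built into its selection. The lowest p-values belonged to Ltb and Lta, the lymphotoxin genes, and to Edar, the ectodysplasin receptor. Ltb rose from 21.8 ± 20.9 to 343 ± 92.5 normalized counts (SD, n = 4 and n = 3; log2 fold change 4.24, limma adjusted p = 0.0036), Lta from 0.588 ± 0.680 to 16.7 ± 2.00 (3.58, limma adjusted p = 0.00504) and Edar from 15.9 ± 4.24 to 62.1 ± 9.88 (1.92, limma adjusted p = 0.00866). Cd27, Fasl and Ngfr were the other called genes. Relt and Ltbr were not called (log2 fold changes 0.74 and 0.29, limma adjusted p = 0.0713 and 0.302).

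Of 42 listed genes that carry or restrain the signal inside the cell, 10 rose and 0 fell at a limma adjusted p below 0.05. Their median log2 fold change was 0.45. Over all genes tested, 11.7% were called higher and 4.00% lower, a share so small that 0 of 42 lower says little. Map3k5, a kinase of the stress pathway named here because it was the 1 listed gene lower at an unadjusted p below 0.05, had a log2 fold change of -0.43 (limma adjusted p = 0.137). Tnfaip3 encodes A20, an enzyme that NF-kappaB induces and that restrains it, and rose from 300.5 ± 156.6 to 1241 ± 491 normalized counts (SD, n = 4 and n = 3; log2 fold change 2.10, limma adjusted p = 0.00866). Traf1, an adaptor of TNFR2 and of the costimulatory receptors, rose from 81.2 ± 80.2 to 463 ± 112 (2.88, limma adjusted p = 0.01). Bcl3, an IkappaB family member, rose from 168 ± 54.2 to 606 ± 229 (1.82, limma adjusted p = 0.0101). Ripk3, the kinase of necroptosis, and Map3k14, the kinase of the noncanonical NF-kappaB route, missed the threshold (1.41 and 1.05, limma adjusted p = 0.0513 and 0.0598).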

How the data were processed

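Heart RNA was sequenced as 7 stranded total RNA libraries with paired ends, per the labels' protocols, and the reads were aligned with STAR 2.7.3 to GRCm38, per the submitters' processing notes. How reads were counted, with which gene models and whether by strand, is not given in the sources used here. The deposited values are normalized counts, a signal in which the authors divided reads by 1 factor per library, as the steps between values show. Whole reads (within 0.01 of a whole number) were recovered in 6 libraries, and less surely in control 1, whose step is close to 1. The authors' deposited table also holds a log2 fold change, its test score (the statistic) and p-values, which were used only where named.

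The members, lists and tests were chosen with earlier results of these data known. Groups were compared with limma 3.58.1 (R 4.3.3; trended, robust variance) on log2(normalized count + 1), with genes at 10 or more in at least 3 libraries and Benjamini-Hochberg adjustment over all 15258 genes; such fold changes understate the change of low genes. The labels do not tie each library to its own animal, so p-values measure the spread between these samples, which may be technical. Receptor and ligand ratios used exact permutation tests. Named list genes are the 3 called with the lowest p in each direction and the 2 not called with the lowest p. Alternatives were pseudocounts of 0.5 and 5, other filters, non-robust variance, edgeR 4.0.16 and DESeq2 1.42.0 on recovered reads, limma-voom, library-size scaling, a replicate block and leaving out each library. The table holds 27 names altered to dates and 2 duplicated names, none of them members. Coordinates and exon lengths are from GENCODE M21, promoters from RefSeq GRCm38.p6.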

Additional observations from a re-analysis of the deposited data

How the results depend on the processing

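Under 17 alternatives the count of members called higher was 7 to 20, beside 17, and the count called lower was 0 in each. It was 11 with a filter of 50 normalized counts (20 members tested) and 7 to 19 when 1 library was left out. It was 13 with edgeR, 18 with DESeq2 and 19 with limma-voom. Calls of higher level among all genes tested also fell with edgeR, with the filter of 50 and with any library but control 2 left out. They rose with DESeq2, with limma-voom and without control 2. Of the 17 called members, 9 passed in every alternative that tested them, 8 lost the call in at least 1, and 0 changed sign. Tnfrsf8 and Tnfsf11, counted among the 9, missed the filter and were not tested when an ICI-myocarditis library was left out. With a replicate block the count was 15, with Tnfrsf18 at 1.34 (limma adjusted p = 0.0551) and Tnfrsf13b at 2.20 (limma adjusted p = 0.0595). Same-numbered libraries had correlations of -0.271, -0.206 and -0.078, and differently numbered ones -0.477 to 0.451, on values centred within each group. The numbers showed no sign of pairing, but so few values cannot exclude it. The sign turned for Tnfrsf21 with limma-voom (0.11), with library-size scaling (0.09) and among the libraries left out (-0.23 to 0.22). It also turned for Tnfrsf25 (-0.91 to 0.15 when 1 library was left out) and for Tnfsf13 (-0.06 with the replicate block, -0.06 to 0.54 when 1 library was left out). The log2 ratio of Tnfrsf14 to Tnfsf14 became 0.0001024 with a pseudocount of 5. With that pseudocount 3 ratios reached the smallest exact permutation p, 0.0286: Tnfrsf11b to Tnfsf11 (1.26), Tnfrsf13b to Tnfsf13b (-1.56) and Tnfrsf13c to Tnfsf13b (-2.45). The causes were not tested. Scaling by library size moved the median log2 fold change of all genes by 0.16, and the count was then 15. Depth limits the 5 members near zero and those with few reads in controls, such as Tnfsf11 and Tnfrsf8.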
